A study of Mus musculus with 18 samples.

Results

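Peritoneal macrophages that lacked the nuclear receptor PXR in the myeloid lineage were compared after culture with PCN (pregnenolone 16alpha-carbonitrile, a synthetic steroid and rodent PXR ligand) or with the solvent DMSO. Libraries were assigned to this comparison by their labels: 6 libraries labelled as myeloid PXR-deleted with the agent PCN (dMye_PCN) and 6 with the same genotype and DMSO (dMye_DMSO), that is 12 of the 18 libraries in the series. The other 6 libraries, 3 with PCN and 3 with DMSO, came from macrophages that carry floxed PXR alleles (FF). Their values are set side by side here. They also enter the fit of all 4 groups, and so its filter, scaling and estimate of spread. All 4 groups share the C57BL/6 strain, an age of 6 weeks and a further knockout, which the DMSO and FF groups carry too. In all groups, macrophages were drawn into the peritoneal cavity by 1 mL of 3% thioglycollate given 3 days before collection. The cells were left to attach for 4 h and then received 20 µM PCN or DMSO for 12 h. The labels do not name the Cre driver that deletes PXR. Nothing in them says that each library is a different mouse, so a p-value here reflects only how far these libraries vary, and that variation may be technical.

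PXR, encoded by Nr1i2, is a ligand-activated transcription factor best known in liver and gut, where it induces genes that clear drugs and steroids. Macrophages balance cholesterol through a pair of opposed systems. When sterol in the endoplasmic reticulum is low, SREBP2 is released from its anchor INSIG and switches on the enzymes of cholesterol synthesis. When sterols accumulate, SREBP2 stays anchored, and oxysterols activate LXR, which induces the exporters ABCA1 and ABCG1 and the ubiquitin ligase MYLIP. The comparison described here asks which responses to PCN remain in cells whose genotype label says that myeloid PXR is lost.

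Library totals ran from 21993697 to 30228017 counts over the 12 dMye libraries, and the totals of both treatments differed by less than their spread (exact permutation p = 0.712, two-sided, 6 against 6). Mitochondrially encoded genes took 1.85% ± 0.179 of counts with DMSO and 1.73% ± 0.125 with PCN (SD, n = 6 each; exact permutation p = 0.186, two-sided). Nr1i2 had 2 counts in all with DMSO and 3 with PCN and was not tested, so neither its expression nor its loss could be seen at this depth. Library dMye_DMSO 5 stood apart. Ribosomal protein genes took 4.33% of its counts against 2.89% to 3.26% in the other DMSO libraries and 2.67% to 3.38% in the PCN libraries. Results that rest on it are given with and without it. No pair of libraries of a group agreed within sampling noise (chi-square per gene at least 3.77), so none was taken for a second sequencing of another. This measure cannot tell separate mice from separate preparations of the same mouse. The macrophage identity on the label was checked with 14 markers, whose summed level was 17280 to 21800 CPM (counts scaled to a common library total) with DMSO and 16760 to 18700 with PCN. Of the defining genes of other cells, the neutrophil gene Ly6g and the endothelial gene Cldn5 were at 0 in all 12 libraries, but the other genes of both lists had counts. The 10 neutrophil markers summed to 100.7 to 119.4 CPM with DMSO and 99.38 to 116.0 with PCN, and the 5 endothelial markers to 30.37 to 38.27 and 31.27 to 37.61. The 12 B cell markers summed to 113.4 to 142.1 CPM with DMSO and 133.5 to 142.6 with PCN, and the 9 monocyte markers to 280.2 to 410.0 and 259.7 to 450.0, none being at 0 throughout. The 11 T and NK cell markers in the table, none at 0 throughout, summed to 4.41 to 5.46 CPM with DMSO and to 5.56 to 6.38 with PCN, without overlap. Mesothelial and fibroblast markers summed to 680 to 863 CPM with DMSO and to 674 to 788 with PCN, 15 of 15 genes being present. The part of these cells in the results below was not tested. In such bulk RNA, fewer cells of a type and less RNA per cell cannot be told apart.

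With PCN, dMye macrophages had lower levels of some sterol genes and higher levels of some stress and cytokine genes. The gene of the cholesterol exporter ABCG1 rose too. Nearly all these changes were small. Among the larger falls were those of Idi1, Kctd12b, Stard4 and Fdps, and the largest called rise was that of Inhba, a subunit of the growth factor activin. Of 13409 genes tested, 279 changed (2.08%), 126 upwards (0.940%) and 153 downwards (1.14%), at an edgeR quasi-likelihood p under 0.05 after Benjamini-Hochberg adjustment. The median rise was 1.17-fold and the median fall was to 0.829 of the DMSO level. Among the calls, 162 (58.1%) were changes of less than 1.2-fold, 1 rise and 14 falls reached 1.5-fold, and 0 rises and 4 falls reached 2-fold. Libraries of the 2 groups did not overlap for 73 of the called rises and 107 of the called falls. Over all genes tested, all 6 PCN libraries lay above all 6 DMSO libraries for 138 (1.03%) and below them for 175 (1.31%). The median log2 fold change of all genes tested was -0.0098.

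The number of calls moved with single libraries. It was 166 without dMye_DMSO 2, 137 without dMye_PCN 3, 144 without dMye_PCN 4 and 167 without dMye_PCN 6. Without dMye_DMSO 5 it was 231, of which 206 were among the 279. A fit of only the 12 dMye libraries, without FF, called 144, of which 139 were among the 279. With upper-quartile scaling, 31.2% of calls were rises, against 45.2% with TMM scaling. Changes also followed transcript length: the median log2 fold change was -0.07 in the shortest of 5 equal bins of genes and 0.05 in the longest. On the log2(CPM + 1) scale those medians were -0.05 and 0.05 with all libraries and -0.01 and 0.02 without dMye_DMSO 5. The direction of the calls followed length too, with 7 rises and 26 falls in the shortest bin and 31 and 14 in the longest. The median transcript length was 3997 bases for called rises and 3195 for called falls.

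Cholesterol synthesis genes fell in part. Of 19 genes that carry acetyl-CoA to cholesterol, all were tested, 7 fell and 0 rose, where 1.14% of all genes tested fell. Of the 19, 18 had a log2 fold change below 0, with a median of -0.26. The 7 were Hmgcs1, Idi1 and Fdps among the 9 genes up to squalene (median -0.23) and Sqle, Cyp51, Msmo1 and Dhcr7 among the 10 after it (median -0.32). Idi1 encodes the isomerase that sets the balance between both isoprenoid building blocks. Its level was 12.3, 13.1 and 14.9 CPM (lowest, median and highest library) with DMSO and 6.27, 7.15 and 8.90 CPM with PCN. The highest PCN library therefore lay below the lowest DMSO library, and the log2 fold change was -0.88 (SE 0.09, adjusted p = 2.3e-05). Fdps, the farnesyl diphosphate synthase, ran from 17.4 to 22.5 CPM (median 19.4) with DMSO and from 10.9 to 15.1 (median 11.6) with PCN. Its groups did not overlap, with a log2 fold change of -0.69 (SE 0.09, adjusted p = 0.0002). Hmgcs1, which makes HMG-CoA, fell less. Its libraries overlapped, at 63.7 to 76.1 CPM (median 71.8) with DMSO and 62.0 to 66.7 (median 63.6) with PCN (log2 -0.16, SE 0.04, adjusted p = 0.032).

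**Figure D1:**
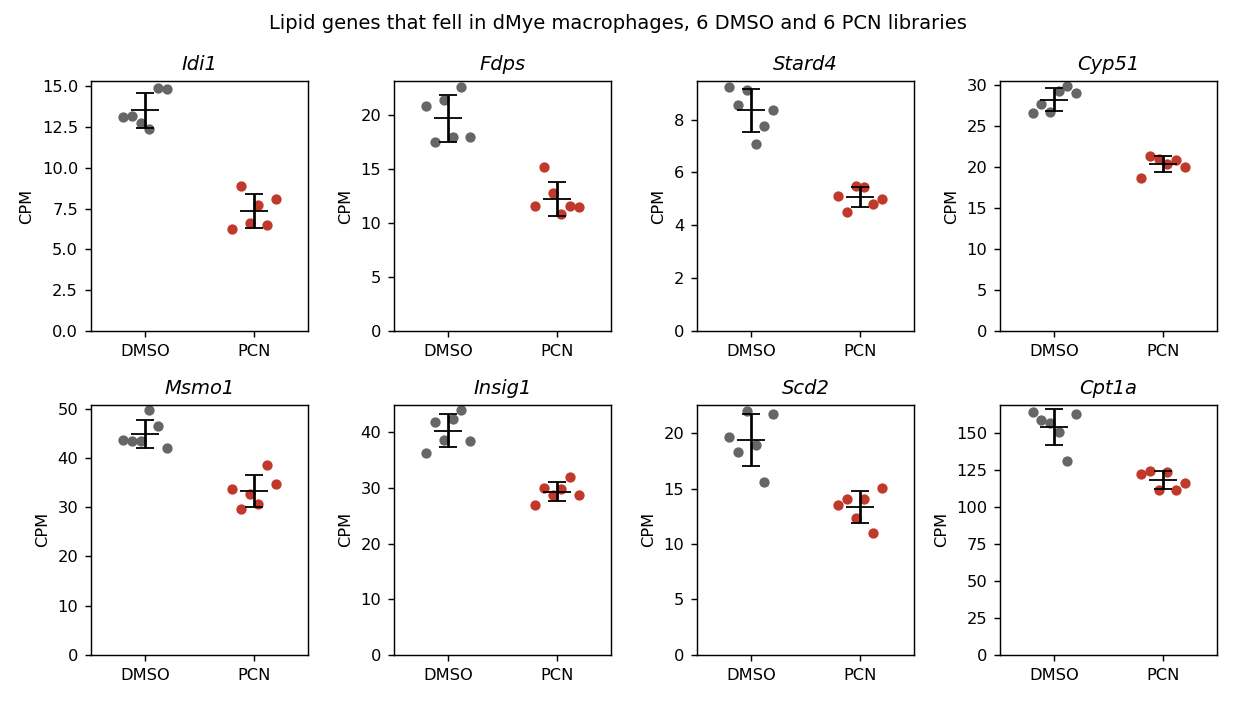
Level of 8 lipid genes that fell (6 sterol genes, Scd2 and Cpt1a) in each dMye library, in CPM from 0, as points, with the mean (wide bar) and SD (whiskers) of the 6 libraries per treatment. Every PCN library (red) lies below every DMSO library (grey) in all 8 panels, and the mean of Idi1 falls from 13.5 to 7.34 CPM.

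The later steps, from squalene to cholesterol, moved the same way. Cyp51, which removes a methyl group from lanosterol, ran from 26.6 to 29.9 CPM (median 28.4) with DMSO and from 18.7 to 21.3 (median 20.6) with PCN. Both groups were tight and far apart for this gene, at a log2 fold change of -0.47 (SE 0.06, adjusted p = 8.9e-05). Msmo1, a sterol methyl oxidase, ran from 42.1 to 49.8 CPM (median 43.5) and from 29.5 to 38.6 (median 33.2), again without overlap (log2 -0.43, SE 0.07, adjusted p = 0.0022). Sqle, the epoxidase that commits squalene to sterols, fell to 0.794 of its DMSO level (log2 -0.33, SE 0.08, adjusted p = 0.021). Dhcr7, the last enzyme of the parallel branch, ran from 7.63 to 11.6 CPM and from 5.08 to 9.04 with overlap (log2 -0.54, SE 0.13, adjusted p = 0.031). Lss, which closes the sterol rings, had a log2 fold change of -0.30 (SE 0.08) and stayed outside the threshold (adjusted p = 0.055). Without dMye_DMSO 5 the count was 7 of 19, Dhcr7 having lost its call, and the lowest count on leaving out a library was 5, without dMye_DMSO 1, 3 or 4 or without dMye_PCN 2, 3 or 4. Hmgcs1 lost its call without dMye_DMSO 1, 2, 3 or 4 or dMye_PCN 1, 2, 3 or 4 (adjusted p up to 0.104), Sqle without dMye_PCN 2 or 4 (up to 0.059), and Dhcr7 without dMye_DMSO 1, 3, 4 or 5 or dMye_PCN 3 or 6 (up to 0.0887). Hmgcs1 and Dhcr7 also lost their calls in a fit of only the 12 dMye libraries.

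**Figure D2:**
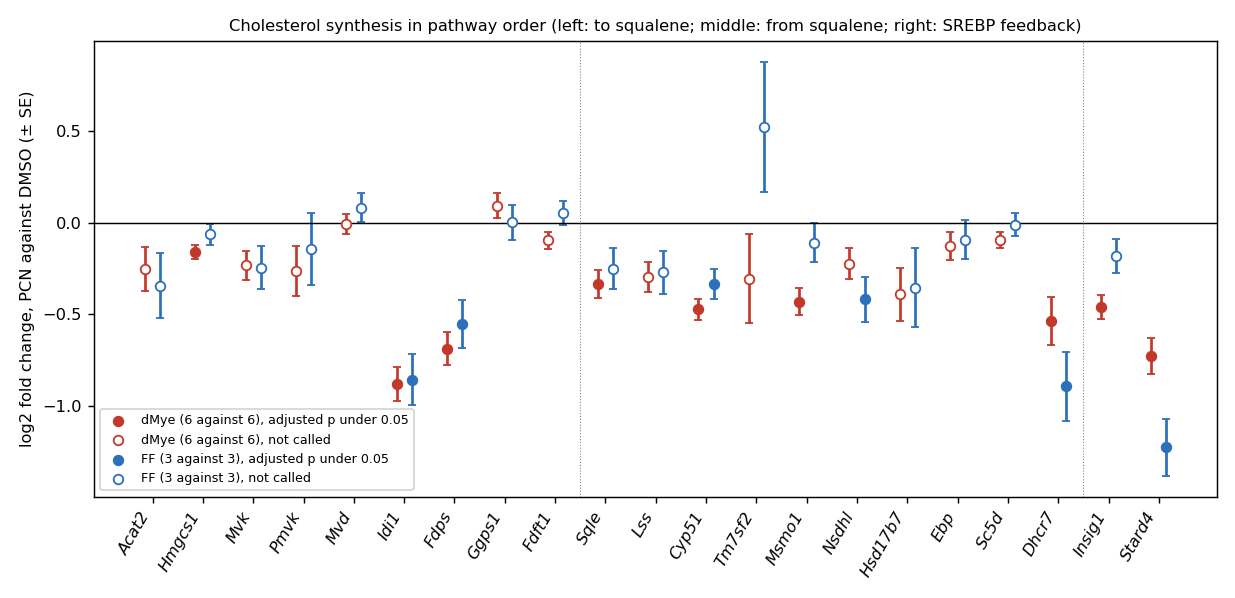
Log2 fold change with PCN (vertical axis, with its SE) of 19 cholesterol synthesis genes in pathway order and of Insig1 and Stard4, in dMye (red) and FF (blue). Filled symbols passed an adjusted p of 0.05: in dMye 7 of the 19 synthesis genes are filled and 18 lie below 0.

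Promoter sequences are shown for 5 of the genes that fell, because genes of this pathway are known to be read by SREBP2 together with the factor NF-Y. Each is the 250 bases before the RefSeq start on GRCm38.p6, written 5′ to 3′ on the gene's own strand. Capitals mark an SREBP element, TCACNCCAC, or an NF-Y box, CCAAT, either of them on either strand (GTGGNGTGA or ATTGG on the other).
Hmgcs1 (chr13:119690101-119690350, plus strand): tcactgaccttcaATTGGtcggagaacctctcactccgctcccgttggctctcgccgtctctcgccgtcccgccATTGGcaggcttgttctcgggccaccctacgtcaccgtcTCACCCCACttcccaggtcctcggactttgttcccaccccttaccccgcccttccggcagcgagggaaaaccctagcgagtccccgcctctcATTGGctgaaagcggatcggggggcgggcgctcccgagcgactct
Idi1 (chr13:8885356-8885605, plus strand): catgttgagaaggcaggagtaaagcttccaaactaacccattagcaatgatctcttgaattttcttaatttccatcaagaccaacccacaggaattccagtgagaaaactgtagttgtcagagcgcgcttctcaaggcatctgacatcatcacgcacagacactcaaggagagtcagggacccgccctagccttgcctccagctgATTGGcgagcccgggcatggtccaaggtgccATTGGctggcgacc
Cyp51 (chr5:4104698-4104947, minus strand): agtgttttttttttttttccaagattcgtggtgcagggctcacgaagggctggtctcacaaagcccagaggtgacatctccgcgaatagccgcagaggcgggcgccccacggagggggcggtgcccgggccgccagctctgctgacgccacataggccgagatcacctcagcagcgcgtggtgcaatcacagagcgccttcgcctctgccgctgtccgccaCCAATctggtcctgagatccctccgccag
Msmo1 (chr8:64733579-64733828, minus strand): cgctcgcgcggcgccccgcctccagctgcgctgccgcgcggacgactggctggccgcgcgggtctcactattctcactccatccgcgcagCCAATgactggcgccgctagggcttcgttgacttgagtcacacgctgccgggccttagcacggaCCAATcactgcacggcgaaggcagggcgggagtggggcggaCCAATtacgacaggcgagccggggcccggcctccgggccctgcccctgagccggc
Insig1 (chr5:28071162-28071411, plus strand): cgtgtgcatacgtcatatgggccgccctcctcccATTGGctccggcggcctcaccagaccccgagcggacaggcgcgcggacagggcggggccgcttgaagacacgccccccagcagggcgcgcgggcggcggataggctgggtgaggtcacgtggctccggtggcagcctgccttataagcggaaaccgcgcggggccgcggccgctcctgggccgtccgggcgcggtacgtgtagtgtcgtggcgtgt
Hmgcs1 holds the SREBP element, which begins 137 bases before the start, along with 3 NF-Y boxes in the stretch shown, and Msmo1 holds 3 NF-Y boxes. Idi1 has 2 NF-Y boxes and Cyp51 and Insig1 have 1 each. A gene was counted for a box or element when any of its windows of 300 bases (250 before the start and 50 after it) held it. The NF-Y box was found in 15 of the 16 cholesterol synthesis genes with a window (93.8%). These were 5 of the 5 called falls with a window and 10 of the 11 genes that were not called. Dhcr7 and Pmvk, both counted, also had windows without an NF-Y box. This box was found in 42.7% of the 10392 tested genes with a window and in 37.4% of all 32851 windows of that length. The SREBP element was found in 5 of the 115 called falls with a window (4.35%), namely Aldh9a1, Coro1a, Hmgcs1, Timd4 and Ucp2. It was in 0 of the 91 called rises with a window and in 1.42% of the tested genes with a window. Among the 16 cholesterol synthesis genes it was in 1. The NF-Y box was in 45.2% of called falls and 51.6% of called rises. Letters of AP-1, NF-kB and CRE sites were in 9.57%, 10.4% and 1.74% of falls. Among rises they were in 12.1%, 7.69% and 4.4%, and among tested genes in 6.54%, 8.4% and 3.46%. The direct repeats searched for LXR and PXR were in 0 tested genes. Coro1a, which binds actin, lost its call in 7 of the 12 fits that left out 1 library, dMye_DMSO 5 among them (adjusted p up to 0.106). A match of letters is a description and does not show binding.

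Stard4 and Insig1 fell among the genes of SREBP feedback. They were 2 of 11 tested genes that control SREBP or report on it, of which 0 rose, with a median log2 of -0.02. Falls made up 1.14% of all genes tested. Stard4, a carrier that brings cholesterol to the endoplasmic reticulum, was at 7.07, 8.47 and 9.22 CPM and at 4.50, 5.06 and 5.48 CPM (log2 -0.73, SE 0.10, adjusted p = 0.00031). Insig1, which anchors SREBP and is itself a target of it, ran from 36.2 to 44.1 CPM (median 40.3) with DMSO and from 26.9 to 32.0 (median 29.3) with PCN. Neither group of Stard4 or Insig1 overlapped with its partner, and the log2 fold change of Insig1 was -0.46 (SE 0.06, adjusted p = 0.00032). Srebf2, the gene of SREBP2, had a log2 fold change of -0.21 (SE 0.06) that did not pass with all libraries (adjusted p = 0.094). Without dMye_DMSO 5 it passed (log2 -0.24, adjusted p = 0.039). Srebf1, Scap, Insig2, Mbtps1 and Mbtps2, the other core parts of the system, lay between log2 -0.03 and 0.08 and none passed.

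LXR targets did not move as a group, but 3 of them rose. Of 14 tested genes of LXR and cholesterol efflux, 3 rose (Abcg1, Mylip and Arl4c) and 0 fell, and the median log2 was -0.07. Rises made up 0.940% of all genes tested. Abcg1, which exports cholesterol to high density lipoprotein, was at 220.3, 269 and 279 CPM with DMSO and at 346, 357 and 408 CPM with PCN. All PCN libraries were higher, by 1.39-fold (log2 0.47, SE 0.05, adjusted p = 2.3e-05), the smallest p among the rises. Mylip, a ubiquitin ligase, ran from 17.1 to 19.5 CPM (median 17.8) and from 22.4 to 25.9 (median 23.9), without overlap (log2 0.40, SE 0.05, adjusted p = 0.00011). Arl4c, a small GTPase, rose by less (log2 0.19, SE 0.05, adjusted p = 0.036). It lost its call without dMye_DMSO 1, 3 or 4 or dMye_PCN 1, 3, 4 or 6 (adjusted p up to 0.0976). The call of Arl4c was also lost with upper-quartile scaling and in a fit of only the 12 dMye libraries. Abca1, the other main exporter, was at 37.7, 54.4 and 62.3 CPM and at 50.1, 64.5 and 75.4 CPM, with wide overlap, and did not pass (log2 0.27, SE 0.10, adjusted p = 0.171). Apoe, Pltp and Lpcat3, further LXR targets, had log2 fold changes of -0.15, -0.07 and -0.08, and none passed. Among 20 carriers of sterol between membranes, Stard4 fell and Osbp2 and Npc1 rose. Osbp2, an oxysterol binding protein, ran from 5.96 to 7.20 CPM and from 7.45 to 9.76 CPM (log2 0.38, SE 0.09, adjusted p = 0.023). It lost its call without dMye_DMSO 2 or 3 or dMye_PCN 3 or 4 (up to 0.0708). Npc1, which lets cholesterol out of lysosomes, had a log2 fold change of 0.21 (SE 0.05, adjusted p = 0.039), lost on leaving out any of 9 libraries, namely dMye_DMSO 2 to 5 or dMye_PCN 1, 2, 3, 4 or 6 (up to 0.102). Upper-quartile scaling and the fit of only the 12 dMye libraries also left Npc1 without a call.

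A few genes of fatty acid oxidation, lipid uptake and storage, and fatty acid synthesis fell, but most members of each list were not called. Among 19 tested genes that PPAR controls or that burn fatty acids, 3 fell (Cpt1a, Acaa2 and Ucp2) and 0 rose. Falls made up 1.14% of all genes tested. Of the 19, 17 had a log2 fold change below 0, with a median of -0.13. Without dMye_PCN 5 the count of falls was 5. Cpt1a, the gate for fatty acids into mitochondria, was at 131, 158 and 164 CPM with DMSO and at 111, 119 and 124 CPM with PCN (log2 -0.38, SE 0.04, adjusted p = 2.3e-05). Acaa2, a thiolase of mitochondrial beta oxidation, ran from 38.4 to 45.1 CPM (median 40.1) and from 27.7 to 33.3 (median 29.5), with a log2 fold change of -0.44 (SE 0.06, adjusted p = 0.00065). The groups of Cpt1a and Acaa2 did not overlap, nor did those of Ucp2, a mitochondrial carrier (log2 -0.30, SE 0.05, adjusted p = 0.00086). Among 19 genes of lipid uptake and storage, Lipa, the lysosomal acid lipase, and Scarb1, a receptor for high density lipoprotein, fell and 0 rose. The median log2 of these 19 was -0.03, and 8 of them lay above 0. Lipa ran from 1234 to 1377 CPM (median 1309) and from 1037 to 1178 (median 1130), all PCN libraries lower (log2 -0.21, SE 0.03, adjusted p = 0.0015). Scarb1 did likewise at 46.6 to 51.7 and 38.4 to 43.8 CPM (log2 -0.27, SE 0.05, adjusted p = 0.003). Cd36, the scavenger receptor for oxidised lipoprotein, was at 2231 ± 128 and 2269 ± 118 CPM (SD, n = 6 each), with a log2 fold change of 0.02 (SE 0.05, adjusted p = 0.869). Scd2, a desaturase that puts a double bond into fatty acids, was the 1 of 16 fatty acid synthesis genes that fell. Its level went from 15.6, 19.3 and 22.02 CPM to 11.01, 13.8 and 15.02 CPM (log2 -0.54, SE 0.09, adjusted p = 0.0017). The median log2 of the 16 was -0.06.

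**Figure D3:**
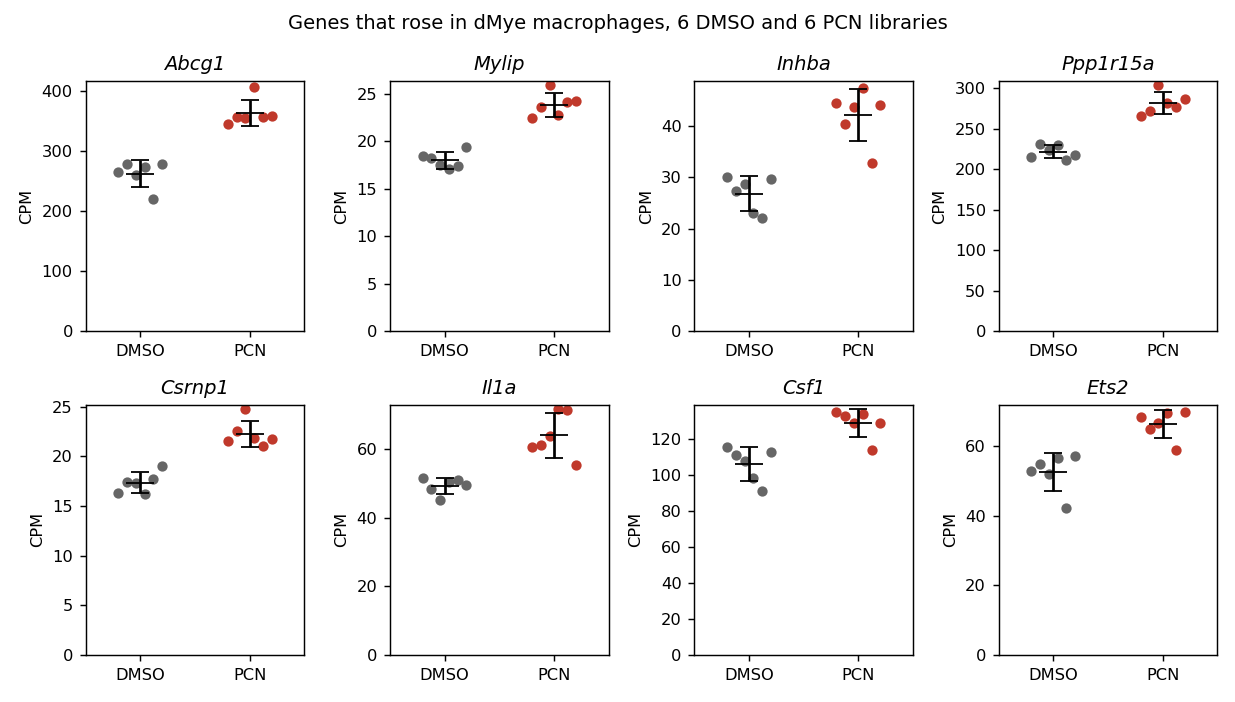
Level of 8 genes that rose, in CPM from 0, in each dMye library (points), with the mean (wide bar) and SD (whiskers) of the 6 libraries per treatment. The PCN libraries (red) lie above all DMSO libraries (grey) for each gene but Csf1, whose lowest PCN library, at 114 CPM, is below the highest DMSO library, at 116.

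Cytokine and growth factor genes rose in part. Of 27 tested NF-kB target and cytokine genes, 7 rose (Il1a, Il1rn, Ptgs2, Nfkb2, Tnfaip2, Tnfaip3 and Csf1) and 0 fell. The median log2 of the 27 was 0.13, and 0.940% of all genes tested rose. Il1a, an alarm cytokine kept inside the cell until damage, was at 45.1, 49.9 and 51.6 CPM with DMSO and at 55.3, 62.5 and 71.6 CPM with PCN. All PCN libraries were higher (log2 0.37, SE 0.06, adjusted p = 0.0026). Csf1, the growth factor that macrophages depend on, ran from 91.5 to 116 CPM (median 109.8) and from 114 to 135 (median 131), with a small overlap (log2 0.28, SE 0.05, adjusted p = 0.0023). Ptgs2, the inducible cyclooxygenase, rose by a log2 of 0.34 (SE 0.07, adjusted p = 0.016) and Tnfaip3, which ends NF-kB signalling, by 0.21 (SE 0.05, adjusted p = 0.017). Tnf was at 12.9, 12.9 and 13.4 CPM and at 13.5, 14.2 and 16.4 CPM. Its libraries did not overlap, but the change did not pass (log2 0.17, SE 0.07, adjusted p = 0.215). Il1b had 28 counts in all with DMSO and 16 with PCN and was not tested. Of 19 chemokine genes 2 rose and 0 fell, with a median log2 of -0.03 and 10 genes below 0. The 2 rises were those of Ccl7 (log2 0.39, SE 0.09, adjusted p = 0.029) and Ccl3 (log2 0.20, SE 0.05, adjusted p = 0.032), which draw monocytes. Ccl7 lost its call without dMye_DMSO 2 or dMye_PCN 2, 3, 4 or 6 (adjusted p up to 0.0862) and Ccl3 without dMye_DMSO 1, 2, 3 or 6 or dMye_PCN 3, 4 or 6 (up to 0.1). Il1rn, Nfkb2 and Tnfaip2 lost their calls in 8, 9 and 3 of the 12 fits that left out 1 library (adjusted p up to 0.08, 0.1 and 0.0703), and for Il1rn and Nfkb2 the library dMye_DMSO 5 was among those left out. In a fit of only the 12 dMye libraries, Ccl7, Ccl3, Il1rn, Nfkb2 and Tnfaip2 were not called. With upper-quartile scaling, Ccl3 and Nfkb2 were not. The count of 7 fell to 4 without dMye_PCN 3 or dMye_PCN 4, and was 5 without dMye_DMSO 5.

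Inhba was the 1 rise of 1.5-fold or more. This gene of the activin A subunit was at 22.1, 27.95 and 30.1 CPM with DMSO and at 32.8, 43.8 and 47.5 CPM with PCN. All PCN libraries were higher (1.57-fold, log2 0.65, SE 0.08, adjusted p = 0.00018). Of 27 tested genes of the TGF-beta and activin pathway, Inhba was the 1 that passed. Among all genes tested 2.08% passed, and nothing on the pathway is read from this count. The pathway's inhibitor Fst, its receptor genes Acvr1b and Acvr2a and its signal carrier Smad3 had log2 fold changes of -0.55, 0.00, 0.20 and 0.06 (SE 0.41, 0.07, 0.08 and 0.08), and none passed.

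Stress and immediate early genes rose in part. Among 27 tested genes that answer misfolded protein or activate the integrated stress response, 5 rose (Ppp1r15a, Slc7a11, Ddit3, Atf3 and Atf6) and 0 fell. The median log2 of the 27 was -0.003, and 0.940% of all genes tested rose. Ppp1r15a, which lifts the stress block on translation, was at 212, 220.5 and 231 CPM with DMSO and at 266, 279.5 and 304 CPM with PCN. The groups lay well apart (log2 0.34, SE 0.04, adjusted p = 5.2e-05). Atf3, a stress-induced repressor, ran from 432 to 488 CPM (median 465) and from 503 to 560.2 (median 529.8), without overlap (log2 0.20, SE 0.04, adjusted p = 0.012). Its call was lost without dMye_DMSO 5 and dMye_DMSO 6 together (log2 0.16, adjusted p = 0.0504). Slc7a11, the cystine importer, rose with overlap (log2 0.31, SE 0.06, adjusted p = 0.011). The targets of ATF4 that make amino acids and the chaperones of the endoplasmic reticulum were not among the 5. Ddit3 lost its call in 8 of the 12 fits that left out 1 library (adjusted p up to 0.109) and Atf6 in 5 (up to 0.0703). Both also lost it in a fit of only the 12 dMye libraries, and Ddit3 with upper-quartile scaling. The count fell to 3 without dMye_DMSO 2 or 3 or dMye_PCN 3, 4 or 6, and it was 5 without dMye_DMSO 5. Of 31 immediate early genes, 4 rose (Csrnp1, Klf6, Myc and Dusp1) and 1 fell (Klf2). The median log2 of the 31 was 0.02, and 12 of them lay below 0. Csrnp1, a nuclear factor induced by AXIN, ran from 16.2 to 19.1 CPM (median 17.4) and from 21.1 to 24.8 (median 21.8) (log2 0.36, SE 0.06, adjusted p = 0.0015). Klf2, which restrains inflammatory genes in myeloid cells, went the other way, from 25.3, 26.5 and 29.6 CPM to 19.7, 22.6 and 24.5 CPM (log2 -0.27, SE 0.06, adjusted p = 0.012). Other rises with small p were those of Ets2, a transcription factor (log2 0.33, SE 0.05, adjusted p = 0.0017), and Mcu, the mitochondrial calcium channel (log2 0.27, SE 0.05, adjusted p = 0.0022). Both had non-overlapping groups, at 42.2 to 57.1 against 58.7 to 69.7 CPM for Ets2 and at 60.02 to 71.6 against 77.5 to 86.5 CPM for Mcu.

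Falls outside lipid metabolism included sensors and signalling genes of the macrophage. Tlr8, a sensor of single-stranded RNA, was at 13.998, 16.7 and 18.6 CPM with DMSO and at 9.33, 10.2 and 11.6 CPM with PCN. All PCN libraries were lower (log2 -0.67, SE 0.09, adjusted p = 0.00032). Tlr7, its neighbour on the X chromosome, ran from 41.9 to 49.8 CPM and from 32.6 to 42.2 CPM with a narrow overlap (log2 -0.26, SE 0.06, adjusted p = 0.027). That call was lost without dMye_DMSO 4 or 6 or dMye_PCN 3, 4 or 6 (adjusted p up to 0.0808), and in a fit of only the 12 dMye libraries. These were 2 of 10 tested Toll-like receptors, or of 20 genes when their adaptors and signalling partners are counted, and 0 rose. Falls made up 1.14% of all genes tested. Ncf1, a subunit of the NADPH oxidase that makes superoxide, fell from 139.9, 144 and 152 CPM to 103, 118 and 124 CPM (log2 -0.33, SE 0.05, adjusted p = 0.00065). Ptpn6, the phosphatase SHP-1, fell from 133, 141 and 151 CPM to 97.0, 109 and 115 CPM (log2 -0.39, SE 0.06, adjusted p = 0.00051). In neither gene did the groups overlap. C5ar1 and P2ry6, receptors for a complement fragment and for UDP, fell to 0.675 and 0.658 of their DMSO levels (adjusted p = 0.022 and 0.027). The call of C5ar1 was lost without dMye_PCN 3 (adjusted p = 0.0527) and that of P2ry6 without dMye_DMSO 1 or dMye_PCN 1, 3 or 4 (up to 0.0793). Csf1r, the receptor for CSF1, was the 1 of 14 macrophage markers that fell, at 124, 132 and 142 CPM against 109, 117 and 129 CPM with overlap (log2 -0.18, SE 0.04, adjusted p = 0.01). Lyz2, another of these markers, was at 3648, 3827 and 5347 CPM and at 2917, 3258 and 3755 CPM, the highest being dMye_DMSO 5. Its change did not pass with all libraries (log2 -0.32, SE 0.09, adjusted p = 0.086), and passed without dMye_DMSO 5 (log2 -0.21, adjusted p = 0.044). Further well separated falls were those of the actin regulator Lsp1 (log2 -0.34, SE 0.04, adjusted p = 0.00018), the chaperone Hspa8, which has near-identical copies that could share its reads (log2 -0.29, SE 0.04, adjusted p = 0.00032) and Glul, the glutamine synthetase (log2 -0.27, SE 0.04, adjusted p = 0.00024).

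The largest fitted falls were in genes of low level. Gpr162, an orphan receptor, was at 1.00, 1.28 and 1.60 CPM with DMSO and at 0.0845, 0.390 and 0.758 CPM with PCN (log2 -1.75, SE 0.35, adjusted p = 0.011). Hspb2, a small heat shock protein gene named here after its values were seen because it lay under the 1 CPM minimum, was at 0.364 to 0.773 CPM and at 0 to 0.268 CPM (log2 -2.11, SE 0.51, adjusted p = 0.03). A count of 3 stands for 0.0993 to 0.136 CPM in these libraries, so the lowest PCN values of both genes lie under that floor. Hspb2 lost its call in 8 of the 12 fits that left out 1 library, dMye_DMSO 5 among them (adjusted p up to 0.0722). Timd4, a receptor for dying cells on resident peritoneal macrophages, fell from 2.18, 2.74 and 3.49 CPM to 1.28, 1.54 and 1.96 CPM (log2 -0.81, SE 0.21, adjusted p = 0.04). Its call was lost on leaving out any of 10 libraries, all but dMye_DMSO 5 and 6 (adjusted p up to 0.0978). Timd4 was the 1 of 16 resident macrophage markers that was called, where 2.08% of all genes tested were. Of the 16, 14 had a log2 fold change below 0 (median -0.17), where 52.7% of all genes tested did. The 16 markers summed to 318.9 to 364.3 CPM with DMSO and to 301.9 to 335.6 with PCN.

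Lists of drug metabolism, nuclear receptor, glucocorticoid-induced, interferon-stimulated, respiratory chain and cell cycle genes gave 0 or 1 call each by edgeR. Among all genes tested 2.08% were called, and nothing particular to these lists is read from the counts. Of 17 tested genes of drug metabolism and transport 0 were called, with a median log2 of -0.10. At an unadjusted p under 0.05 there were 3, DESeq2 called 2 (Por and Abcc3) and limma-voom 0. Cyp3a11, a classical PXR target of liver, had 0 counts in the DMSO libraries and 1 in all PCN libraries. The drug exporters Abcb1a and Abcb1b were at 12.6 ± 1.47 and 43.1 ± 3.19 CPM with DMSO and at 11.1 ± 1.51 and 41.7 ± 2.43 with PCN (SD, n = 6 each). Neither passed (log2 -0.18 and -0.05, adjusted p = 0.413 and 0.733). Of 29 tested nuclear receptor and cofactor genes 0 were called, also by DESeq2 and limma-voom, with 3 at an unadjusted p under 0.05. Among 20 genes induced by glucocorticoids, Dusp1 rose (log2 0.20, SE 0.04, adjusted p = 0.015) and the others did not pass. The glucocorticoid markers Tsc22d3, Fkbp5 and Zbtb16 were among those others. Of 31 interferon-stimulated genes 0 were called and 28 had a log2 fold change below 0 (median -0.11, and -0.09 without dMye_DMSO 5), with 3 at an unadjusted p under 0.05 and 0 called by DESeq2 or limma-voom. For the respiratory chain, 0 of 13 mitochondrial and 0 of 25 nuclear genes were called, yet 13 and 23 of them had log2 fold changes below 0 (medians -0.14 and -0.08). Without dMye_DMSO 5, 12 and 15 were below 0 and the medians were -0.09 and -0.01. At an unadjusted p under 0.05 there were 4 mitochondrial genes and 1 nuclear gene, and DESeq2 called 2 (mt-Nd6 and mt-Co3) and 0, limma-voom 0 of either. Of 33 cell cycle genes 0 were called, 24 lying below 0 (median -0.12, and -0.11 without dMye_DMSO 5), with 6 at an unadjusted p under 0.05, 1 called by DESeq2 (Bub1b) and 0 by limma-voom. The share of all tested genes below 0 was 52.7%.

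**Figure D4:**
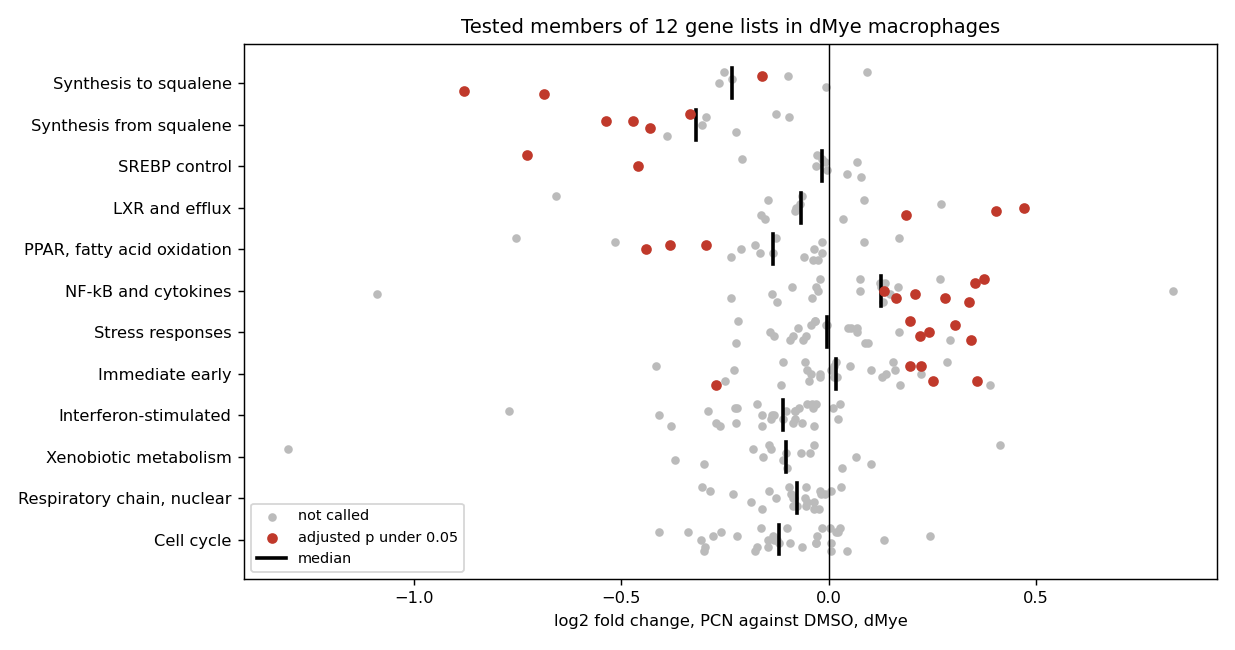
Log2 fold change with PCN in dMye (horizontal axis) of each tested member of 12 gene lists, with called genes in red and the list median as a black bar. Called members of the cholesterol lists lie between -0.88 and -0.16, and those of the NF-kB and cytokine list between 0.13 and 0.37.

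Set beside the FF macrophages, whose label leaves PXR in place, most responses of the dMye macrophages were present in both genotypes. The 2 comparisons share no libraries. In FF, 1851 genes changed with PCN (13.8%). Of the 279 calls in dMye, 242 were called in the same direction in FF (86.7% of the dMye calls and 13.1% of the FF calls), 113 of the rises and 129 of the falls, and 0 in the opposite direction. The median log2 fold change of the 126 rises was 0.22 in dMye and 0.42 in FF, and that of the 153 falls was -0.27 and -0.48. These medians are of genes chosen for passing in dMye. The difference between both PCN effects, tested as an interaction, was called for 190 of all genes (1.42%). It was called for 51 of the 279, and for all 51 the change was larger in FF. Without dMye_DMSO 2, dMye_PCN 1 or dMye_PCN 2 the count of 190 was 121, 122 and 125. Ddx3y, which lies on the Y chromosome, reached at most 0.475 CPM in the 12 dMye libraries and at least 43.7 CPM in the 6 FF libraries, so sex and genotype cannot be told apart in this difference.

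No sterol synthesis gene was called for a difference between genotypes. For Idi1 the log2 fold change was -0.88 in dMye and -0.86 in FF (interaction adjusted p = 0.979), and for Fdps it was -0.69 and -0.55 (0.804). Cyp51 stood at -0.47 and -0.33 (0.625). These differences did not pass. The median log2 of the 19 cholesterol synthesis genes was -0.26 in dMye and -0.24 in FF, where 5 fell and 0 rose. Stard4 fell to log2 -0.73 in dMye and to -1.22 in FF, but the difference did not pass (interaction adjusted p = 0.215). A p outside the threshold does not show that the effects are equal: the SE of the difference was 0.17 for Idi1 and 0.16 for Fdps.

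Other genes moved less in dMye than in FF. Inhba rose by a log2 of 0.65 in dMye and 1.36 in FF (interaction adjusted p = 0.02), and Ppp1r15a by 0.34 and 0.86 (0.00044). Tlr8 fell to -0.67 and -1.54 (0.0086) and Cpt1a to -0.38 and -0.70 (0.03). The difference was also called for Txnip, an inhibitor of thioredoxin (-0.25 and -0.86, 5.2e-05), and for Shtn1, a shootin protein gene (-0.16 and -0.72, 5.2e-05). The dMye call of Shtn1 was lost without dMye_DMSO 1 or 3 (adjusted p up to 0.0535), and in a fit of only the 12 dMye libraries. Angptl4, an inhibitor of lipoprotein lipase and a PPAR target, fell by 2.45 on the log2 scale in FF, and its log2 fold change in dMye was -0.52 (SE 0.23, adjusted p = 0.274). This difference passed (interaction adjusted p = 0.02). Abcg1 rose by 0.47 and 0.57, a difference that did not pass (0.705).

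**Figure D5:**
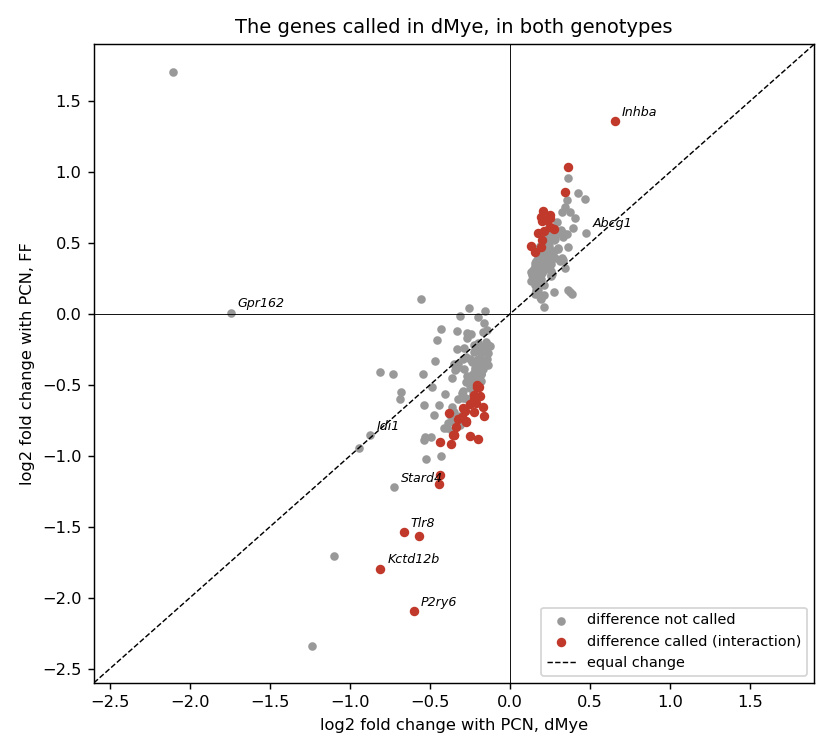
Log2 fold change with PCN in dMye (horizontal axis) and in FF (vertical axis) of the 279 genes called in dMye. Red points are the 51 whose difference between genotypes was called, all farther from 0 in FF; Idi1 lies close to the dashed line of equal change.

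The 37 dMye calls that were not calls in FF held several sterol genes. Insig1 had a log2 fold change of -0.46 in dMye and -0.18 in FF (FF adjusted p = 0.214), Msmo1 of -0.43 and -0.11 (0.573), Sqle of -0.33 and -0.25 (0.142) and Hmgcs1 of -0.16 and -0.06 (0.52). The sterol carrier Osbp2 stood at 0.38 and 0.14 (0.548). None of the 37 was called for the interaction, the smallest adjusted p being that of Hspb2 (0.1035), so none was shown to differ between genotypes. In 5 of the 37 the sign in FF was opposite.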

How the data were processed

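For 18 RNA-seq libraries the authors deposited 1 table of estimated counts (expected counts) per gene, not scaled and not always whole. The submitters' processing notes name the mm10 build. Which aligner and counter made them is not given in the sources used. Values were rounded to whole counts. Genes were kept by edgeR's filterByExpr, scaled by TMM and fitted with the quasi-likelihood test (edgeR 4.0.16, R 4.3.3, robust) over all 4 groups, with Benjamini-Hochberg adjustment over 13409 genes and a threshold of 0.05. SE is the log2 fold change divided by the root of F. CPM uses the library total, and totals of 21993697 to 30228017 counts set the precision.

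The genes named were the 20 rises and 20 falls of smallest p and the 5 of largest change each way (mean of at least 1 CPM), up to 4 called members per list, a fixed set, and up to 6 called for the interaction. List members named beside their count or values, and Hspb2, lie outside this rule and were chosen after their values were seen. The comparison and the gene lists were chosen with earlier results of these data known. Alternatives used limma 3.58.1, DESeq2 1.42.0, other scalings and filters, and fits without each library. Some genes are not reported here and were left out of the gene lists, though not of the fits. The scripts were tested on simulated data. Promoter windows came from RefSeq (GRCm38.p6), where 10392 of the tested genes matched.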

Additional observations from a re-analysis of the deposited data

Results flagged for a closer look

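Among 190 groups of 6 libraries examined, 14 (7.37%) held a library far from the other 5 relative to the group's range, where chance gives about 1 in 20. Library dMye_DMSO 5 gave 10 of them. It was lower than the others for Abcg1 at 220.3 CPM (others 259.8 to 279), Ets2 at 42.19 (52.02 to 57.13), Mfsd7b at 232.3 (271.1 to 292.8), Atf6 at 266.1 (320.3 to 347.9), Itgb3 at 25.51 (33.08 to 37.61) and Esyt1 at 237.0 (266.3 to 278). It was higher for Pgd at 363.1 CPM (292.6 to 318.3), Lyz2 at 5347 (3648 to 4033), Tnf at 13.37 (12.88 to 13.05) and the ribosomal protein share at 4.332% (2.894 to 3.263). In another DMSO library, dMye_DMSO 6, Slc7a11 was high at 66.29 CPM (50.24 to 55.79). With PCN, Abcg1 was high in dMye_PCN 4 at 407.7 CPM (346 to 359.2), and Csf1 and Myc were low in dMye_PCN 5 at 114.1 (129 to 135.4) and 40.75 (44.96 to 46.93).

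The PCN effect differed between genotypes, by the interaction in edgeR, for 25 of the named genes, given here as the log2 fold change in dMye minus that in FF. For genes that rose it was -0.5168 for Ppp1r15a, -0.7035 for Inhba, -0.6724 for Csrnp1, -0.3218 for Mcu, -0.3621 for Mreg, -0.4575 for Rhov, -0.521 for Ccl3, -0.4826 for Dusp1 and -0.3217 for Atf3. For the lipid genes that fell it was 0.3148 for Cpt1a, 0.4605 for Acaa2, 0.3048 for Lipa and 0.3692 for Ucp2. For receptors and other falls it was 0.9843 for Kctd12b, 0.8721 for Tlr8, 1.0 for C5ar1, 1.494 for P2ry6, 0.461 for Lsp1, 0.4005 for Hspa8, 0.4189 for Evl, 0.5026 for Srrt, 0.5591 for Shtn1, 0.6107 for Txnip, 0.6809 for Ly6e and 0.4876 for Esyt1. Sex follows genotype in these libraries, and both cannot be told apart.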

How the results depend on the processing

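Against 279 changed genes in dMye, DESeq2 called 584 (275 of them among the 279), a fit of only the 12 dMye libraries 144 (139 among them), and a test against a 1.2-fold change 8 (Inhba, Idi1, Kctd12b, Fdps, Stard4 and Tlr8 among them). Leaving out dMye_DMSO 5 and dMye_DMSO 6 together gave 179, and the ribosomal protein share as a covariate, an alternative chosen after seeing the data, gave 548. Without 1 library at a time the count ran from 137 to 371. Against 190 genes whose PCN effects differed between genotypes, DESeq2 gave 426, the 1.2-fold test 8, the covariate 610, and leaving out 1 library 121 to 261. The difference in mitochondrial share ran from -0.1671 to -0.06101 percentage points over the same omissions. Of 98 named genes called in dMye, none changed sign in the alternatives run, 63 were called in each fit without 1 library, and 6 in every alternative. A fit of only the 12 dMye libraries kept 72 of 97 named calls and lost 25. Upper-quartile scaling kept 93 of 98. The cause of the changed counts was not tested. No paired analysis was possible because the labels do not tie replicate numbers to shared animals, days or batches. At this depth a count of 3 is 0.0993 to 0.136 CPM, so changes of genes under about 1 CPM rest on few counts.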

Other observations

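Genes of the leukocyte actin skeleton and of Fc receptor and Src family kinase signalling were also among the falls with PCN in dMye. These lists were written after the values had been seen, so their counts describe and support nothing. Of 17 tested actin genes, 6 fell (Coro1a, Cotl1, Evl, Lsp1, Myo1f and Myo1g) and 1 rose (Fmnl2), with a median log2 of -0.12, where 1.14% of all genes fell. Evl, which extends actin filaments, ran from 47.2 to 54.3 CPM with DMSO and from 37.3 to 42.4 with PCN, without overlap (log2 -0.33, SE 0.05, adjusted p = 0.00076). Cotl1, a coactosin, and Myo1g, a leukocyte myosin, had log2 fold changes of -0.24 and -0.23 (SE 0.05 and 0.04, adjusted p = 0.0087 and 0.0026). Of 18 tested genes of Fc receptor and Src family kinase signalling, 5 fell (Fcgr4, Nfam1, Fgr, Ptpn6 and Matk) and 0 rose, with a median of -0.07. Nfam1, an ITAM receptor, ran from 96.7 to 106 CPM and from 78.4 to 91.8, and the Src family kinase Fgr from 31.2 to 37.4 and from 24.1 to 30.04, both without overlap (log2 -0.28 and -0.36, adjusted p = 0.0013 and 0.0043). Without dMye_DMSO 5 the counts of falls were 5 of 17 and 4 of 18.

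Enzymes that supply NADPH or feed peroxisomes moved downwards in part, on lists of the same kind. Idh1, the cytosolic isocitrate dehydrogenase, was at 110 to 137 CPM with DMSO and at 80.7 to 105 with PCN (log2 -0.42, SE 0.06, adjusted p = 0.00065). It was 1 of 3 falls among 10 tested genes, with Pgd and Idh2, and this count was 2 without dMye_DMSO 5 and at its lowest 1 on leaving out a library. Abcd2, a peroxisomal importer of fatty acids, ran from 16.6 to 21.2 CPM and from 11.9 to 16.5, without overlap (log2 -0.44, SE 0.07, adjusted p = 0.0016).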
